A study of Mus musculus with 29 samples.

Results

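Chromatin remodelers and histone modifiers were examined across 15 RNA-seq libraries of sorted mouse retinal neurons. The genes were chosen by name alone, as every gene symbol of the deposited expression table that begins with Smarc, or with Arid, Chd, Kdm, Kmt, Setd, Hdac or Sirt followed by a number. This rule found 83 of 24062 genes, in 8 families: 14 SMARC genes, 10 ARID, 9 CHD, 11 HDAC, 7 SIRT, 18 KDM, 5 KMT2 and 9 SETD. The table of open chromatin (ATAC-seq, which counts cuts of a transposase in accessible DNA) was used as a second readout that the rule did not touch.

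Nucleosomes keep DNA closed to most transcription factors. The SWI/SNF (BAF), ISWI and CHD complexes use ATP to slide or evict them. Most SMARC proteins and some ARID proteins are BAF or ISWI subunits. The CHD proteins are ATPases, of which CHD3, CHD4 and CHD5 drive the NuRD complex that also carries histone deacetylases. HDAC and SIRT enzymes remove acetyl groups from histones and many other proteins. Most KMT2 and some SETD enzymes add methyl groups to histone lysines, and KDM enzymes remove them. Most are made in every cell, and in the retina histone deacetylases, the demethylase LSD1 and BAF subunits are known for roles in progenitor and photoreceptor differentiation.

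All libraries came from adult retina dissociated and sorted by fluorescence. The pan-BC libraries (all bipolar cells, 3 replicates, postnatal days 47, 44 and 44) came from Otx2-GFP+/- mice, in which GFP sits in the Otx2 locus, so that these bipolar cells carry 1 intact copy of Otx2. The ON-BC and OFF-BC libraries (3 each, days 43, 48 and 42) came from Otx2-GFP+/-; Grm6-YFP+/+ mice, in which the Grm6 promoter marks ON bipolar cells, and the OFF-BC cells were sorted a second time. Bipolar types with little Grm6 promoter activity may be missing from both. Rods (3, Nrl-eGFP, day 56) and "blue cones" (3, the photoreceptors of Nrl-eGFP;NrlKO mice, which lack the rod factor NRL and stand in for S-cones, day 56) were taken over from earlier work of the same laboratory. Class, age and study therefore coincide in any comparison of bipolar cells with photoreceptors and cannot be told apart. ATAC-seq was available as 2 libraries each of pan-BC, ON-BC, OFF-BC (all Otx2-GFP+/-; Grm6-YFP+/+, days 42 to 46), rods, blue cones and green cones (Opn1mw-GFP, day 56).

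Depth was 12329548 to 26266746 counted reads per RNA-seq library and 4176776 to 12345845 per ATAC-seq library. Every population carried the markers of its label: the 10 bipolar markers summed to 113566 to 162078 normalized reads in the 9 bipolar libraries and to 1494 to 2084 in rods, but to 26890 to 31190 in blue cones, where Cabp5 made up most of the sum. Transcripts that mark photoreceptors were present in the bipolar libraries. The 8 rod markers stood at 0.397% to 11.4% of their rod level in pan-BC and at 0.0485% to 6.84% in OFF-BC, and the 8 cone markers at 0.259% to 19.1% of their blue cone level in pan-BC, 0.0354% to 5.20% in ON-BC and 0.505% to 52.8% in OFF-BC. These percentages rest on population means, and the OFF-BC libraries were uneven. Opn1sw stood at 4477, 4314 and 55813 in OFF-BC 1, 2 and 3, and Arr3, Pde6h and Pde6c were also mostly in OFF-BC 3. Gngt2 (12305, 9131 and 14168), Gnat2, Cngb3 and Opn1mw were less uneven. The 6 microglia markers summed to 378 to 792 in blue cones, against 20.2 to 24.5 in pan-BC. The pan-BC libraries also differed among themselves in sex-linked RNA. Xist, which is made from the inactive X chromosome, stood at 8239, 7679.7 and 35.5 in pan-BC 1, 2 and 3, and Ddx3y, a Y-linked gene, at 4.25, 6.05 and 1571. The other 12 libraries each held both transcripts (174 to 4851 for Xist and 605 to 2668 for Ddx3y). The labels give no sex.

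Of the 83 members, 82 had enough reads to be tested. The exception was Smarca5-ps, a processed pseudogene of Smarca5, which stood at 0 to 13.6 and shares sequence with its parent. Values are counts divided by 1 size factor per library, and differences are log2 fold changes of the normalized count plus 1, from 1 limma fit of all 15 libraries. A gene is called past 2-fold where it differed by more than a factor of 2, and differing where it differed at all, each at an adjusted p below 0.05 (Benjamini-Hochberg over 14024 genes). To compare 1 gene with another, the mean over the 15 libraries was divided by the length of the gene's exons. Per kilobase, Smarcb1, a core BAF subunit, was highest with 3053 normalized reads, followed by the deacylases Sirt2 (1773) and Sirt3 (955). Smarca5-ps (1.11), the methyltransferase Setd7 (16.8) and the DNA-binding protein Arid3a (18.4) were lowest.

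Of the 82 tested members, 28 were past 2-fold in at least 1 comparison, and 78 differed in at least 1 by the test against no change. Between pan-BC and rods, 9 of 82 members were higher in pan-BC and 11 lower past 2-fold, against 27.8% higher and 15.8% lower of all genes tested, so the share of members higher in pan-BC lay below the background and the share lower near it. Under the test against no change the counts were 26 higher and 36 lower (44.2% and 35.4% of all genes), a balance that turned to 37 higher and 24 lower when scaled by library totals. Between pan-BC and blue cones, 12 members were higher and 10 lower past 2-fold (22.7% and 13.7% of all genes), and 35 and 26 differed (42.0% and 34.3%). The 2 photoreceptor comparisons share the pan-BC libraries. Between rods and blue cones, 1 member was higher in rods and 8 in blue cones past 2-fold (4.63% and 11.3%), and 33 and 23 differed (27.2% and 30.4%). Between ON-BC and OFF-BC, 1 member was higher in each past 2-fold (2.95% and 3.60%), and 14 were higher and 2 lower in ON-BC by the test against no change (12.7% and 14.2%).

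In size, the median absolute log2 fold change of the members between pan-BC and rods was 0.78, against 1.27 over all genes, and between ON-BC and OFF-BC 0.22 against 0.32. The signed medians were -0.17 against 0.21 for pan-BC over rods, 0.07 against 0.16 for pan-BC over blue cones, 0.05 against -0.02 for ON-BC over OFF-BC and 0.25 against -0.00 for rods over blue cones. Scaling by library totals in place of the authors' size factors moved the median of all genes between pan-BC and rods to 0.55 and that between pan-BC and blue cones to 0.44. It changed the members' split between pan-BC and rods to 13 higher and 10 lower. In all 4 comparisons together 54 members were never past 2-fold, and Arid1a, Setd4, Setd6 and Smarcc1 differed in none. In these bulk samples, fewer cells making a transcript and less of it in each cell cannot be told apart.

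**Figure D1:**
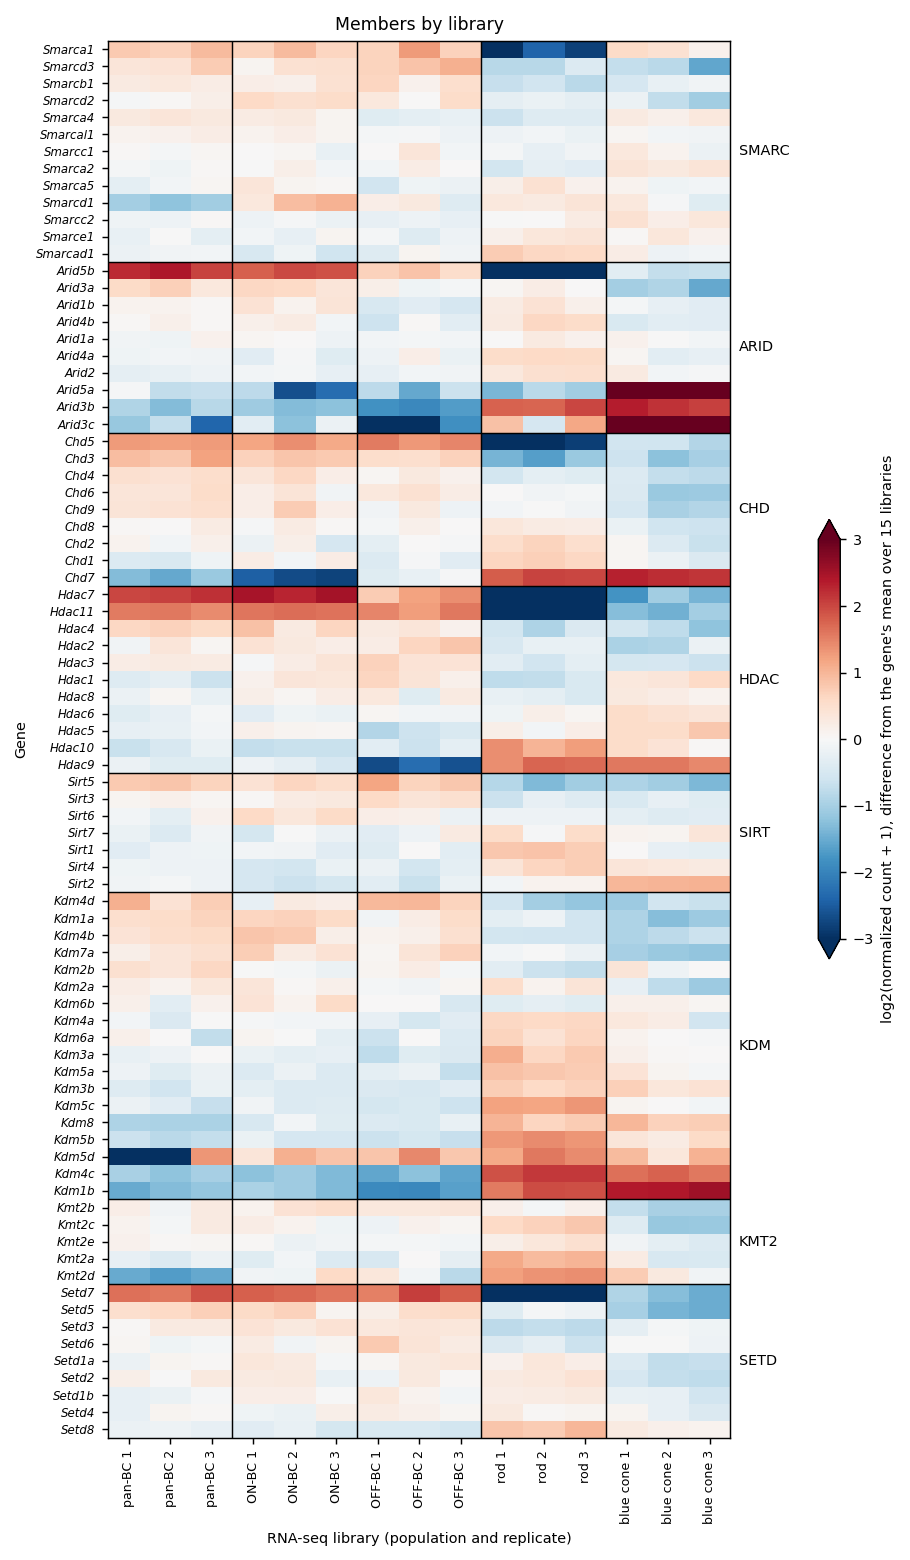
Each row is 1 of the 82 tested members and each column 1 RNA-seq library, with the colour giving log2(normalized count + 1) minus the gene's mean over the 15 libraries. Most rows are pale throughout, while Arid5b, Hdac7, Hdac11, Chd5 and Setd7 are lowest in rods, and Arid3b, Chd7, Kdm4c and Kdm1b are highest in rods and blue cones.

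**Figure D2:**
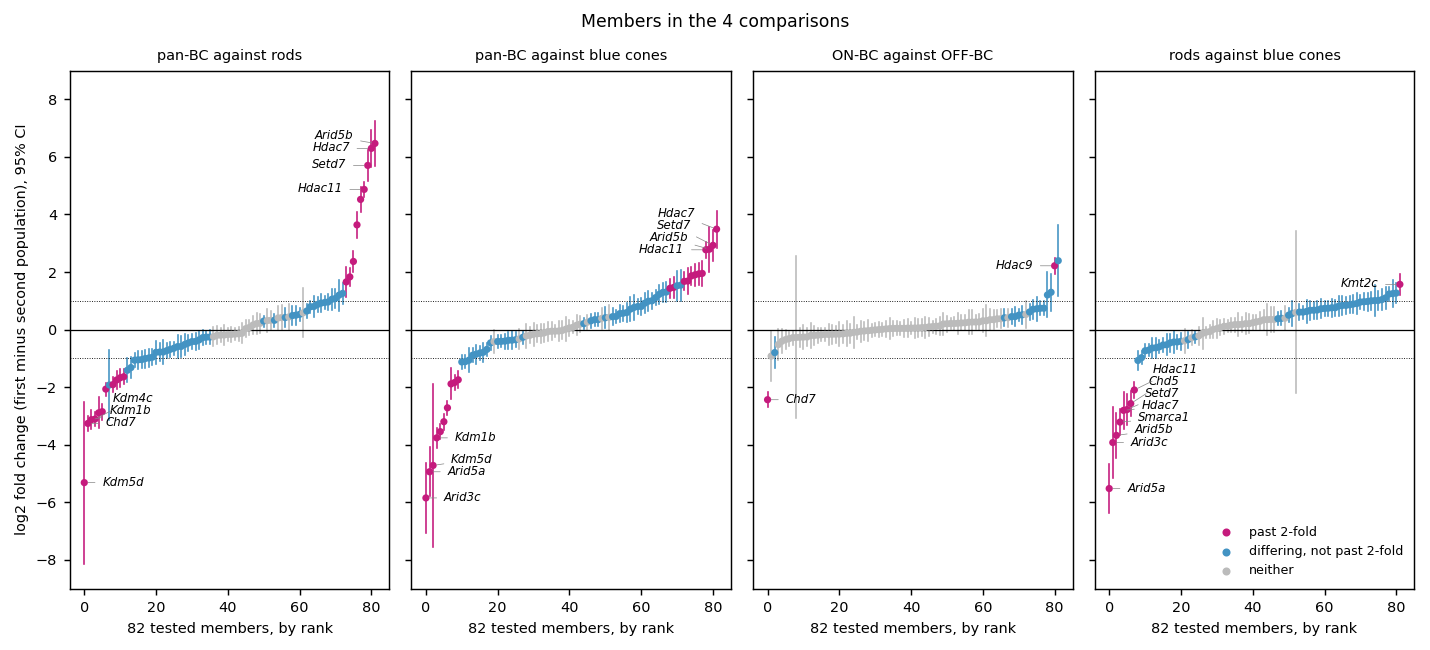
Log2 fold change of each tested member in the 4 comparisons, ranked, with 95% confidence intervals as bars and dotted lines at a fold of 2. Points past 2-fold number 20, 22, 2 and 9, and Kdm5d has the widest intervals.

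The ATPases of the BAF complex were made everywhere. Smarca4 (BRG1) stood at 3438, 3594 and 3438 in pan-BC and 1788, 2127 and 2145 in the rod libraries, which makes a log2 fold change of 0.79 (SE 0.10, limma adjusted p against no change = 1.16e-06), and at 3089.9 to 3484 in blue cones. In OFF-BC it lay lower, at 2153 to 2408, than in ON-BC (2949.8 to 3405), and with OFF-BC in place of pan-BC the difference from rods was 0.17 (limma adjusted p = 0.113). Its paralogue Smarca2 (BRM) stood at 2978, 2812 and 3146 in pan-BC, 2128, 2585 and 2444 in rods and 4015, 3809 and 4079 in blue cones. Smarca2 was thus lowest in rods and highest in blue cones, with a log2 fold change of -0.74 for rods over blue cones (SE 0.11, limma adjusted p = 1.7e-05), while its difference of 0.32 between pan-BC and rods was no longer called without rod replicate 1 (0.24, limma adjusted p = 0.0622). Per kilobase the pair was near equal in pan-BC (539 for Smarca4 and 476 for Smarca2), and in rods Smarca2 was the higher (312 and 381).

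The structural BAF subunits were not past 2-fold between pan-BC and rods. Smarcb1 stood at 5851 ± 180.5 (SD, n = 3) in pan-BC, 3008 ± 239 in the rod libraries and 4012 ± 556 in blue cones, differing from rods by 0.96 (limma adjusted p = 5.78e-06). Of the scaffold pair, Smarcc1 was at 405 to 626 in all libraries and differed in no comparison, while Smarcc2 was at 1910.0 to 2683 outside blue cones and 2598 to 3153 in them. Arid1a, the larger ARID subunit of the complex, lay at 2368 to 3137 in all 15 libraries. Its paralogue Arid1b was higher in ON-BC (1593, 1275 and 1535) than in OFF-BC (852, 935 and 834), by 0.74 (SE 0.11, limma adjusted p = 8.42e-05), and its difference of 0.31 from blue cones was lost under TMM scaling (0.23) and with edgeR, without pan-BC replicate 1 or 2 and without blue cone replicate 2 or 3 (limma adjusted p from 0.0537 to 0.0834).

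Among the BAF60 subunits, which bridge the complex to transcription factors, Smarcd3 stood at 118, 123 and 155 in pan-BC, 51.4, 51.2 and 69.2 in rods and 55.7, 51.6 and 30.3 in blue cones. Pan-BC exceeded rods by 1.20 and blue cones by 1.54 (limma adjusted p against no change = 0.000402 and 3.73e-05), without passing the test against a 2-fold difference. Smarcd2 was higher in pan-BC (238, 250.2 and 273) than in blue cones (215, 145 and 118), by 0.71. Smarcd1 followed another order, since its 3 pan-BC values (517, 453 and 504) lay below all 6 of ON-BC and OFF-BC (800.0 to 2145). It is taken up again with the other members of that kind.

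The ISWI ATPases parted ways between the photoreceptors. Smarca1 (SNF2L), the ISWI ATPase enriched in brain (chrX:47809370-47892613, minus strand), stood at 779.7, 730.3 and 878 in pan-BC, 705 to 1104 in ON-BC and OFF-BC and 672, 625 and 491 in blue cones, but at 45.6, 85 and 63.8 in rods. No rod library overlapped any other, and the log2 fold changes were 3.64 for pan-BC over rods (SE 0.21, limma adjusted p against 2-fold = 4.2e-09) and -3.21 for rods over blue cones (SE 0.21, 1.47e-07). Smarca5 (SNF2H), its widely expressed paralogue, lay at 296 to 606 in all libraries. Its calls against no change were -0.36 for pan-BC over rods and 0.45 for ON-BC over OFF-BC, and both were lost without some single libraries: the first without pan-BC replicate 1 or 2 or rod replicate 2 (limma adjusted p = 0.16, 0.0672 and 0.168), the second without ON-BC replicate 1 or 2 or OFF-BC replicate 1 (limma adjusted p = 0.157, 0.0509 and 0.169).

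The partners of these ATPases, listed by complex, were counted next. Of 18 tested BAF partners, 4 were higher and 1 lower past 2-fold in pan-BC than in rods and 5 higher and 2 lower than in blue cones. Over all genes 27.8% were higher and 15.8% lower than in rods, and 22.7% and 13.7% than in blue cones, so the partners' counts of higher genes lay near the background. Actl6b (BAF53b), the actin-like subunit of the neuronal form of BAF, stood at 18.4, 15.4 and 16.2 in rods, against 575, 613 and 474 in pan-BC and 945, 1131 and 1115 in blue cones. OFF-BC held more of it (1378, 1319 and 1610.0) than ON-BC (300.3, 323 and 369), by a log2 fold change of -2.11 for ON-BC over OFF-BC (limma adjusted p against 2-fold = 2.36e-05). Rods held least, at -5.91 relative to blue cones.

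Of the DPF subunits, which read acetylated histones and are exchanged as neurons mature, Dpf1 and Dpf3 differed between pan-BC and both photoreceptors. Dpf3 was also higher in rods than in blue cones. Dpf1 stood at 249, 323 and 267 in pan-BC, 1.94, 9.22 and 10.8 in rods and 20.3, 29.6 and 20.7 in blue cones. Dpf3 stood at 228, 169 and 188 in pan-BC, 5512, 5579.7 and 5222 in rods and 896, 861 and 669.8 in blue cones. The pair thus had opposite orders, with log2 fold changes for pan-BC over rods of 5.30 and -4.80 (limma adjusted p against 2-fold = 3.07e-08 and 1.14e-11). Bcl11a, a zinc finger subunit, was at 0 in all 6 photoreceptor libraries, at 36.2, 31.3 and 40.4 in pan-BC, 9.29, 2.94 and 4.1 in ON-BC and 101, 133 and 106 in OFF-BC, and was called past 2-fold between ON-BC and OFF-BC (limma adjusted p = 1.89e-05). Bcl7c (28.7 to 51.4 in pan-BC and 1.02 to 16.3 in photoreceptors) was higher in pan-BC than in both, Bcl7a (862 to 945 and 211 to 318) and Gltscr1 (82.7 to 115 and 13.3 to 41.4) were higher than in blue cones, and Actb, β-actin, was lower than in blue cones (-1.69). Of 9 tested ISWI partners, Baz2b was lower in pan-BC relative to rods (-1.33) and Cecr2 relative to both photoreceptors (-1.64 and -2.31) past 2-fold.

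Of the other ARID proteins, some bind AT-rich DNA, and 4 showed the largest differences of the family. Arid5b (chr10:68092523-68279355, minus strand in GRCm38.p6, the build of all coordinates given), a partner of the demethylase PHF2, stood at 2491, 2823 and 2162 in pan-BC, 1823, 2090.0 and 1999 in ON-BC and 853, 959 and 760.3 in OFF-BC. In blue cones it stood at 426, 320.2 and 332 and in rods at 9.7, 44 and 44.3. No photoreceptor library reached a bipolar one, and the log2 fold changes of 6.47 for pan-BC over rods (SE 0.37, limma adjusted p against 2-fold = 5.39e-10) and -3.68 for rods over blue cones (SE 0.37, 1.42e-05) made it the member with the largest difference between pan-BC and rods. Over blue cones it was higher by 2.79 in pan-BC, and with OFF-BC in place of pan-BC by 1.26, which was not past 2-fold (limma adjusted p = 0.525). Its difference of 1.20 between ON-BC and OFF-BC was called against no change, and that call was lost without ON-BC replicate 2 or 3 or OFF-BC replicate 1 or 3 (limma adjusted p from 0.0563 to 0.0654).

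Arid3b (chr9:57790353-57836847, minus strand) had the reverse order. It stood at 5819, 5717 and 6860.0 in rods and 8729.6, 7633 and 7077 in blue cones, against 913, 692 and 957 in pan-BC, 693 to 810.0 in ON-BC and 445 to 533 in OFF-BC. The log2 fold changes were -2.85 (SE 0.13, limma adjusted p against 2-fold = 8.94e-10) and -3.20 (SE 0.13, 2.63e-10), with no overlap. Arid5a, an RNA-binding protein known for stabilising inflammatory transcripts, and Arid3c were highest in blue cones by a wide margin: Arid5a stood at 1171, 1321 and 1148 there and at 7.84 to 53.2 in the other 12 libraries, and Arid3c at 274, 209 and 274 there and 0 to 24.9 elsewhere. The log2 fold changes of rods over blue cones were -5.52 and -3.93 (limma adjusted p against 2-fold = 7.7e-08 and 0.000611). Microglia markers were also highest in blue cones, and their part in the level of Arid5a was not tested. Arid3a, at 136, 152 and 114 in pan-BC, was higher past 2-fold than in blue cones (44.4, 48.6 and 31.1) by 1.69 (limma adjusted p = 0.0103), a call lost without blue cone replicate 3 (1.50, limma adjusted p = 0.0538) and with OFF-BC in place of pan-BC (1.16).

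The NuRD ATPases were all higher in bipolar cells. Chd5, the form known from neurons, stood at 905, 883 and 918 in pan-BC and 826 to 1112 in ON-BC and OFF-BC, against 251, 247 and 202 in blue cones and 43.7, 24.6 and 51.9 in rods. Chd3 stood at 506, 468 and 620.3 in pan-BC, 101, 84 and 123 in rods and 173, 112 and 133 in blue cones. Chd4 stood at 3510.1, 3373 and 3622 in pan-BC, 1726, 2054 and 1969 in rods and 1898, 1536 and 1461 in blue cones. Both Chd5 (4.52 over rods, SE 0.20, and 1.95 over blue cones, SE 0.20, limma adjusted p against 2-fold = 6.07e-11 and 0.000474) and Chd3 (2.37, SE 0.18, and 1.93, SE 0.18, limma adjusted p = 2.43e-06 and 0.000199) were past 2-fold. Chd4 differed by less, 0.87 and 1.11, and was called against no change alone. Per kilobase Chd4 was the highest of the 3 throughout, with 523 normalized reads in pan-BC and 286 in rods. Chd5 reached 95.1 in pan-BC, 24.6 in blue cones and 4.22 in rods, and Chd3 73, 19.2 and 14.1. In rods, then, the CHD3 and CHD5 transcripts were rare beside Chd4.

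Of the 10 NuRD partners, 3 were higher and 1 lower past 2-fold in pan-BC than in rods, and the same numbers held against blue cones, near the 27.8% and 15.8% and the 22.7% and 13.7% of all genes. The MTA subunits, which hold the deacetylases in the complex, took different orders. Mta1 stood at 762, 686 and 808 in pan-BC, 86.4, 48.1 and 68.1 in rods and 139, 143 and 141 in blue cones (3.49 over rods, limma adjusted p against 2-fold = 4.61e-10). Mta2 stood at 887, 936 and 889.5 in pan-BC, 8833, 7911 and 9181 in rods and 3977, 3409 and 3229 in blue cones, so that rods held most (-3.25 for pan-BC over rods, limma adjusted p = 2e-12). Mta3, at 0.97, 0 and 3.24 in rods, was nearly missing from rods alone, with 77.6 to 121 in pan-BC and 181 to 197 in blue cones. Cdk2ap1 was higher in pan-BC than in both photoreceptors (2.59 and 2.54) and Gatad2b (401 to 479.6) higher than in blue cones (69.6 to 147).

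Chd7 (chr4:8690402-8868449, plus strand), the remodeler mutated in CHARGE syndrome and known to act at enhancers, was the CHD member with the reverse order. In rods it stood at 5852, 6792 and 6673 and in blue cones at 8327, 7775 and 7415, against 674, 575 and 772 in pan-BC. OFF-BC held 1308, 1434 and 1635 and ON-BC 303, 261 and 242, so that all 3 OFF-BC libraries lay above all 3 ON-BC libraries. The log2 fold changes were -3.26 for pan-BC over rods (SE 0.12, limma adjusted p against 2-fold = 3.5e-11), -3.55 over blue cones (SE 0.12, 2.79e-11) and -2.44 for ON-BC over OFF-BC (SE 0.12, 2.87e-07). Cone markers also differed between ON-BC and OFF-BC in that direction. The OFF-BC level of Chd7 was 18.6% of its blue cone level, where the 8 cone markers ranged from 0.505% to 52.8% with a median of 4.81%, and the ON-BC level and those markers (0.0354% to 5.20%) were lower. The OFF-BC percentages of Opn1sw, Arr3, Pde6h and Pde6c come mostly from OFF-BC 3. The part of cone RNA in the level of Chd7 was not tested. Chd6 and Chd9 were higher in pan-BC than in blue cones by 1.31 and 1.22 and were not past 2-fold.

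**Figure D3:**
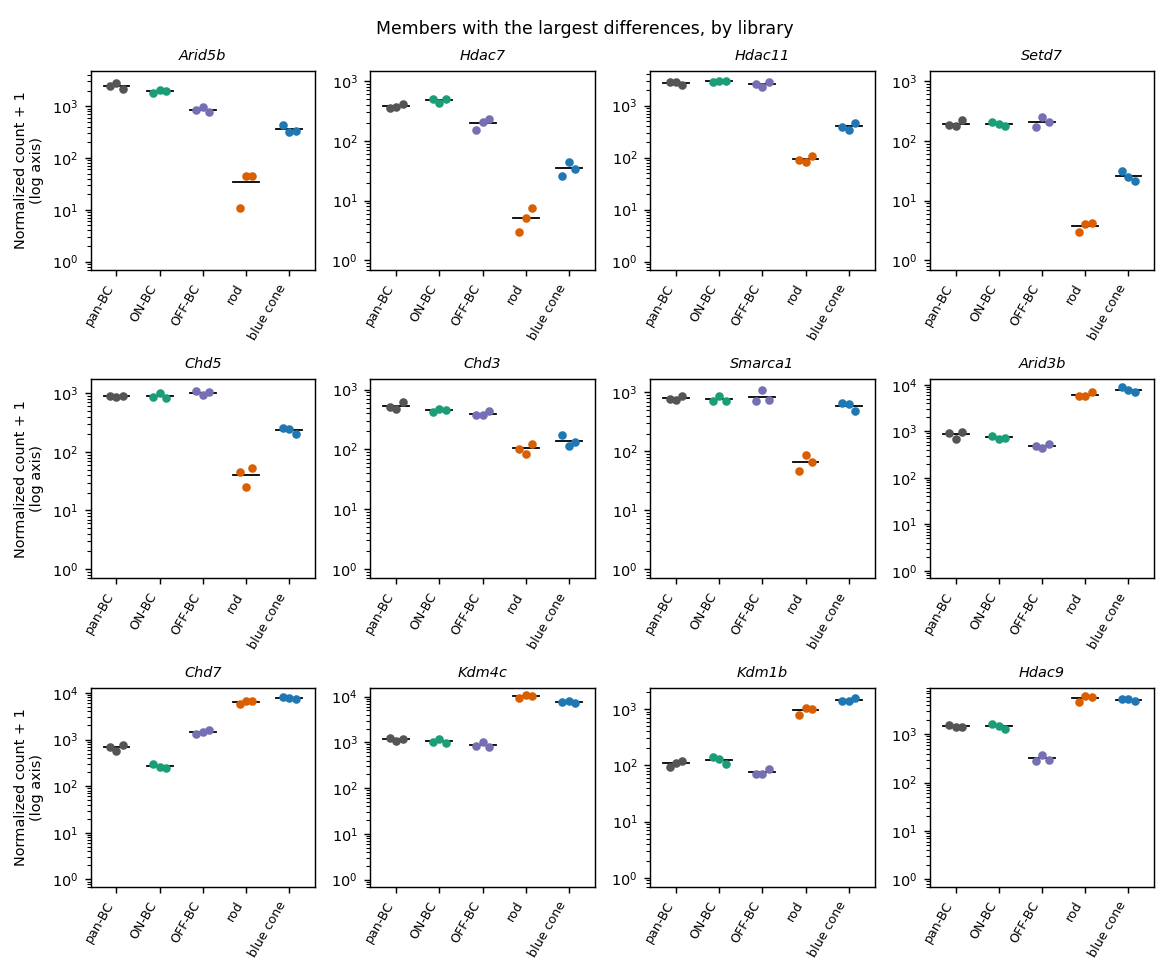
Normalized count plus 1 (log axis) of 12 members with large differences, 1 point per RNA-seq library and a line at each population's mean. Arid5b, Hdac7, Hdac11, Setd7, Chd5, Chd3 and Smarca1 are lowest in rods on average, and Arid3b, Chd7, Kdm4c, Kdm1b and Hdac9 are higher in rods and blue cones than in every bipolar library.

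The deacetylases of class I, the catalytic cores of NuRD, SIN3, CoREST and NCoR, differed by less than 2-fold in most comparisons. Hdac1 stood at 289, 318 and 242 in pan-BC, 224, 228 and 276 in rods and 471, 486 and 578 in blue cones, and rods were lower than blue cones with a log2 fold change of -1.07 (limma adjusted p against no change = 1.85e-05). Hdac2 stood at 372 to 508 in pan-BC, 282 to 340.4 in the rod libraries and 207 to 354 in blue cones. Hdac3 stood at 1741 to 1814 in pan-BC, 1007 to 1214 in the rod libraries and 962 to 1060.1 in blue cones. Pan-BC exceeded rods in Hdac3 by 0.64 and blue cones by 0.80 (limma adjusted p against no change = 8.02e-05 and 9.51e-06), and per kilobase it was highest of the 3 in pan-BC (887, against 215 for Hdac2 and 144 for Hdac1).

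The class IIa deacetylases, which shuttle between nucleus and cytoplasm and bind MEF2 factors, were the most divided. Hdac7 (chr15:97792661-97844502, minus strand) stood at 356, 372 and 409 in pan-BC, 497, 432 and 505 in ON-BC, then 151, 205 and 234 in OFF-BC, 24.8, 42.5 and 33.3 in blue cones and 1.94, 4.1 and 6.48 in rods. Rods held a few reads of it, and no populations overlapped between the 2 classes (6.30 for pan-BC over rods, SE 0.30, limma adjusted p against 2-fold = 6.14e-11, and 3.49 over blue cones, SE 0.30, 1.52e-06). Between ON-BC and OFF-BC it differed by 1.30 (limma adjusted p against no change = 0.00391). Hdac9 (chr12:34047580-34917095, minus strand) was reversed, with 4714, 6082 and 5819 in rods and 5400.1, 5429 and 4883 in blue cones, 1592, 1396 and 1405 in pan-BC, 1613, 1503 and 1274 in ON-BC and 282, 370.0 and 292 in OFF-BC. It was lower in pan-BC relative to rods (log2 fold change -1.91, SE 0.13, limma adjusted p against 2-fold = 5.18e-06) and to blue cones (-1.84, SE 0.13, 1.94e-05). Hdac9 was also the only member higher in ON-BC past 2-fold, by 2.22 over OFF-BC (SE 0.13, limma adjusted p = 2.6e-06). Pan-BC and ON-BC overlapped in Hdac9, while OFF-BC stood apart.

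Hdac4 stood at 1165, 1216 and 1121 in pan-BC, 517, 398 and 561 in rods and 519, 447 and 325 in blue cones. Its excess of 1.46 over blue cones was past 2-fold (limma adjusted p = 0.0276) but not under TMM scaling (1.39, limma adjusted p = 0.0638), with DESeq2 (adjusted p = 0.0523), with OFF-BC in place of pan-BC (1.09), or without pan-BC replicate 1 (0.0578) or 2 (0.074) or blue cone replicate 3 (0.161). Hdac5 was highest in blue cones (1875, 1873 and 2247) and higher in ON-BC (1327 to 1435) than in OFF-BC (702 to 941), by 0.74 (limma adjusted p against no change = 0.000147). Its small difference between pan-BC and rods, -0.28, turned to 0.07 when scaled by library totals, and its call was lost without pan-BC replicate 1 or 2 or rod replicate 1 or 3 (limma adjusted p from 0.0945 to 0.128).

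Hdac11, the only class IV deacetylase, and Hdac10, a polyamine deacetylase, had opposite orders. Hdac11 (chr6:91156670-91174692, plus strand) stood at 2817, 2847 and 2528 in pan-BC, 2251 to 3027 in ON-BC and OFF-BC, 392, 346 and 465 in blue cones and 89.3, 81.9 and 107 in rods. It was higher in pan-BC by 4.87 over rods (SE 0.13, limma adjusted p against 2-fold = 8.63e-14) and 2.77 over blue cones (SE 0.13, 2.82e-09), and per kilobase it was the highest HDAC member in pan-BC (1095 normalized reads) and, after Hdac7, the lowest in rods (37.2). Hdac10 stood at 479, 548 and 669 in pan-BC and 2009, 1565 and 1828 in the rod libraries, which makes a log2 fold change of -1.68 for pan-BC over rods (SE 0.15, limma adjusted p against 2-fold = 0.000631), a call lost when scaled by library totals (-1.33, limma adjusted p = 0.0843).

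The corepressors that carry these enzymes were counted from a list of 22 tested genes, of which 5 were higher and 4 lower past 2-fold in pan-BC than in rods, and 3 higher and 2 lower than in blue cones, with 27.8% and 15.8% and then 22.7% and 13.7% of all genes called so. Rcor2, a CoREST subunit that joins KDM1A to HDAC1 and HDAC2, stood at 150.0, 123 and 125 in pan-BC, 0.97, 0 and 0 in rods and 5.26, 0.759 and 0 in blue cones, and its paralogue Rcor1 at 459, 425 and 601 in pan-BC, 150.4, 148 and 126 in rods and 97, 77.4 and 65.9 in blue cones. Both CoREST genes were called past 2-fold in both comparisons (limma adjusted p against rods = 2.75e-08 and 0.000562). Trerf1 stood at 9.7, 4.1 and 24.9 in rods, against 529 to 641 in pan-BC and 161 to 202 in blue cones. Tbl1xr1 was higher in pan-BC relative to rods (log2 fold change 1.41), while Sap30 (-3.96), Mier2 (-1.63), Mier3 (-1.55) and Sin3a (-1.36) were lower.

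The sirtuins, NAD-dependent deacylases, had 1 member past 2-fold. Sirt5, the mitochondrial desuccinylase, stood at 1156, 1198 and 1082 in pan-BC and 912 to 1533 in ON-BC and OFF-BC, against 375, 268 and 327 in rods and 356, 325 and 266 in blue cones, which overlapped. It was higher in pan-BC by 1.83 over rods (SE 0.15, limma adjusted p against 2-fold = 8.94e-05) and 1.87 over blue cones (SE 0.15, 8.2e-05). The other mitochondrial pair differed by less: Sirt3 stood at 1529 to 1632 in pan-BC and 931 to 1235 in photoreceptors, and Sirt4 at 1298 to 1309 and 1735 to 2402. Sirt1, the nuclear founder of the family, was higher in rods (493, 515 and 471) than in pan-BC (222, 256 and 258) and blue cones (285, 237 and 232), by 0.98 over blue cones (limma adjusted p against no change = 2.8e-05). Sirt2, a tubulin deacetylase, was highest in blue cones (6069, 6179.8 and 6223, against 1911 to 3254 in the other 12 libraries).

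Among the 18 demethylases, 1 was higher and 6 were lower past 2-fold in pan-BC than in rods, and 2 were higher and 4 lower than in blue cones, beside the shares of all genes given above (27.8% and 15.8%, then 22.7% and 13.7%). The LSD pair, which oxidise methylated H3K4, took opposite directions. Kdm1a (LSD1) stood at 1017, 1045 and 1134 in pan-BC, 578, 639 and 479.8 in rods and 372, 294 and 335 in blue cones. Kdm1b (LSD2) stood at 93.6, 109 and 119.9 in pan-BC, 797, 1036 and 1021 in rods and 1409, 1414 and 1576 in blue cones. Kdm1a was higher in pan-BC than in blue cones by 1.68 (SE 0.15, limma adjusted p against 2-fold = 0.000686), and Kdm1b lower than in rods (-3.13, SE 0.16, 2.2e-09) and than in blue cones (-3.76, SE 0.16, 2.07e-10). With OFF-BC in place of pan-BC, the excess of Kdm1a over blue cones was 1.33 and not past 2-fold (limma adjusted p = 0.0615). Per kilobase Kdm1a was the higher of the pair in pan-BC (345 against 21.6) and the lower in blue cones (108 against 294).

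The KDM4 enzymes, which act on H3K9 and H3K36, also divided. Kdm4c stood at 9138, 10584 and 10547 in rods and 7642, 8212 and 7209 in blue cones, against 1240.2, 1057 and 1206 in pan-BC and 807 to 1164 in ON-BC and OFF-BC. It was lower in pan-BC, with log2 fold changes of -3.11 against rods (SE 0.12, limma adjusted p against 2-fold = 3.5e-11) and -2.72 against blue cones (SE 0.12, 1.27e-09), with no overlap. Kdm4d stood at 195, 125 and 154 in pan-BC and 62.1, 45.1 and 41.1 in rods, higher by 1.66 (SE 0.25, limma adjusted p against 2-fold = 0.0215). ON-BC held less Kdm4d (78.4, 112 and 106) than OFF-BC (182, 185 and 147), and with ON-BC in place of pan-BC the difference from rods was 0.99 and not past 2-fold (limma adjusted p = 0.903). Kdm4b was higher in pan-BC (792 to 888) than in rods (394 to 401) and blue cones (314 to 380.4) and Kdm4a lower than in rods, neither past 2-fold. Members given with values (Chd6, Chd9, Kdm4b, Kdm4d, Kdm5a, Kdm5b, Kdm8, Kmt2e, Setd5, Sirt4 and Sirt5) fell outside the naming rule and were chosen after their values were seen.

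The KDM5 enzymes remove methyl groups from H3K4. Kdm5b stood at 4352, 4673 and 4424 in the rod libraries, 2262, 2081 and 2608 in blue cones and 1124, 1011 and 1071 in pan-BC, which makes a log2 fold change of -2.07 for pan-BC over rods (SE 0.11, limma adjusted p against 2-fold = 9.17e-08), and Kdm5a was lower (-1.04) without passing 2-fold. The X-linked Kdm5c stood at 5656, 5537 and 6119 in the rod libraries, 2584, 2459 and 2301 in blue cones and 2172, 1928 and 1516 in pan-BC 1, 2 and 3, which makes a log2 fold change of -1.64 for pan-BC over rods (SE 0.12, limma adjusted p against 2-fold = 0.00015). Pan-BC 3, the library with little Xist, held least of it. Kdm5d, its Y-linked counterpart, stood at 0, 0 and 239 in pan-BC 1, 2 and 3 and at 119.9 to 284 in the other 12 libraries. The test called pan-BC lower than each photoreceptor (limma adjusted p against 2-fold = 0.00689 and 0.0201), yet the third pan-BC library lay within the range of rods. Both calls were lost without a pan-BC library at 0. The call against rods was lost without pan-BC replicate 1 (limma adjusted p = 0.0505) or 2 (0.0516), with edgeR (-1.75, adjusted p = 0.177), and with ON-BC (-0.61) or OFF-BC (-0.34) in place of pan-BC, and the call against blue cones likewise (limma adjusted p = 0.127 and 0.13 without the replicates in turn). In pan-BC 1 and 2, Ddx3y and Uty, a Y-linked demethylase of the KDM6 family (3.19, 0 and 547 in pan-BC), were likewise at or near 0, and in pan-BC 3 they were not.

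The KDM6 enzymes act on the polycomb mark H3K27. Kdm6a (UTX), which is X-linked and escapes X inactivation, stood at 770.1, 698 and 418 in pan-BC 1, 2 and 3, 1110.0, 942 and 1088 in rods and 753, 701 and 674 in blue cones, a log2 fold change of -0.78 for pan-BC over rods (limma adjusted p against no change = 0.00184, 0.0817 when scaled by library totals). Again pan-BC 3 was lowest. Kdm6b (JMJD3), an inducible gene, lay at 1806 to 3715 with overlap between pan-BC and both photoreceptors. Of the rest, Kdm7a was higher in pan-BC (839, 955 and 1035) than in blue cones (373, 342 and 328) by 1.43 (SE 0.15, limma adjusted p against 2-fold = 0.017, lost without pan-BC replicate 3 at 0.0699), and Kdm8 lower in pan-BC (200.0, 198 and 199) than in rods (779, 600.3 and 652) and blue cones (766, 615 and 637), with log2 fold changes of -1.75 and -1.75 (limma adjusted p = 0.000128 and 0.000189). With ON-BC (-1.13) or OFF-BC (-1.17) in place of pan-BC, Kdm8 was not past 2-fold below rods, nor below blue cones (-1.12 and -1.16). From the list of 6 other tested demethylases, Hr, the hairless H3K9 demethylase, stood at 45.6, 57.4 and 45.4 in rods, 1284, 1519 and 1702 in pan-BC and 1039, 1173 and 1209 in blue cones (4.90 for pan-BC over rods, limma adjusted p against 2-fold = 9.01e-14).

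**Figure D4:**
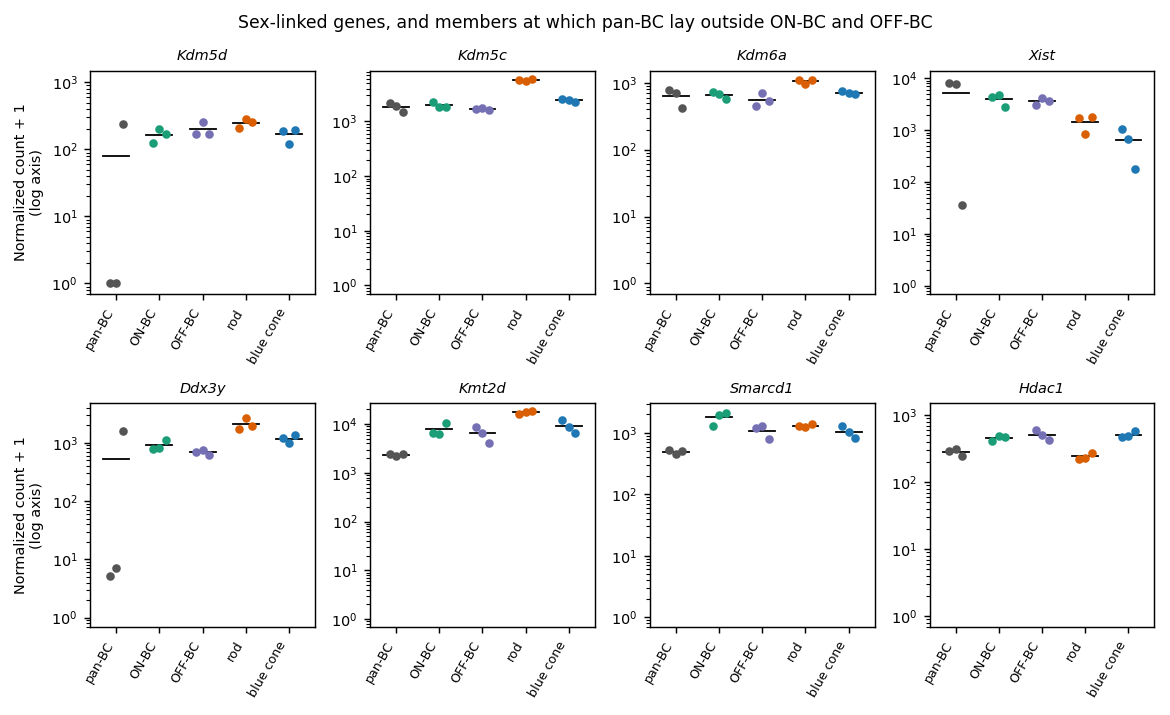
Normalized count plus 1 (log axis) of 3 sex-linked members (Kdm5d, Kdm5c, Kdm6a), of Xist and Ddx3y, and of 3 members whose pan-BC libraries lay outside ON-BC and OFF-BC (Kmt2d, Smarcd1, Hdac1), with 1 point per RNA-seq library and lines at the means. For Kdm5d, 2 pan-BC points sit at 0 reads and the third at 239, beside the rods.

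The 5 KMT2 genes, which methylate H3K4 (Kmt2e, the exception, has no known methyltransferase activity), all differed between rods and blue cones and were all higher in rods. By the same test against no change, 33 of the 82 tested members (40.2%) and 27.2% of all genes were higher in rods. Kmt2a stood at 5983, 5234 and 5477 in the rod libraries, 3202, 1939.5 and 1968 in blue cones and 2279, 2023 and 2386 in pan-BC. Kmt2c stood at 3900.4, 4172 and 4503 in the rod libraries, 1976, 1172 and 1202 in blue cones and 2794, 2478 and 3129 in pan-BC. The rod excess over blue cones was 1.27 for Kmt2a, 0.97 for Kmt2b, 1.57 for Kmt2c, 1.01 for Kmt2d and 0.61 for Kmt2e. Kmt2c alone was past 2-fold (limma adjusted p = 0.0124), and that call was lost without rod replicate 3 (0.0505) or blue cone replicate 2 (0.0816) or 3 (0.0694), with only the rod and blue cone libraries in the fit (0.128) and when scaled by library totals (0.0518). The first blue cone library lay above the other 2 in Kmt2a, Kmt2c and Kmt2d.

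Kmt2d, which places monomethyl marks at enhancers, stood at 16386, 17941 and 18348 in rods and at 11855, 8654 and 6480.0 in blue cones. Its pan-BC values were close together (2463, 2181 and 2439.7) and far below those of ON-BC (6579, 6393 and 10688) and OFF-BC (8829, 6685 and 4011). The test called pan-BC lower than rods (-2.89, SE 0.26, limma adjusted p against 2-fold = 3.33e-06) and than blue cones (-1.89, SE 0.26, 0.00532). With ON-BC in place of pan-BC the differences were -1.19 (limma adjusted p against 2-fold = 0.446) and -0.19, and with OFF-BC -1.50 (0.0756) and -0.50, none past 2-fold. The size of the bipolar deficit in Kmt2d therefore depended on which bipolar libraries stood for the class.

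Of the SETD genes, Setd7 (chr3:51515318-51560823, minus strand), an H3K4 monomethyltransferase that also acts on other proteins, was low in photoreceptors. It stood at 184, 176 and 220.2 in pan-BC and 167 to 249 in ON-BC and OFF-BC, against 30.8, 23.5 and 20 in blue cones and 1.94, 3.07 and 3.24 in rods. The log2 fold changes were 5.71 for pan-BC over rods (SE 0.26, limma adjusted p against 2-fold = 3.75e-11), 2.93 over blue cones (SE 0.26, 4.79e-06) and -2.78 for rods over blue cones (2.68e-05). Setd5 was higher in pan-BC (553, 591 and 642) than in blue cones (194, 147 and 138) past 2-fold (1.90, limma adjusted p = 0.000224). The catalytic subunits of the SET1 complexes, Setd1a (252 to 302 in pan-BC, 311 to 364 in rods, 170.0 to 216 in blue cones) and Setd1b (633 to 729, 880.0 to 917 and 502 to 638), and the H3K36 methyltransferase Setd2 (940.2 to 1157, 1153 to 1283 and 560.3 to 673) were each higher in rods than in blue cones by 0.84, 0.61 and 1.00, without passing 2-fold.

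Lists of related enzymes and partners were counted in the same way. Over all 151 tested partner genes, 22 were higher and 20 lower past 2-fold in pan-BC than in rods, and 22 higher and 13 lower than in blue cones. The shares of all genes were 27.8% and 15.8% against rods and 22.7% and 13.7% against blue cones. Of the 12 shared COMPASS subunits, which serve the KMT2 and SETD1 enzymes, Wdr82 (1.80) and Psip1 (1.43) were higher and Wdr5 (-1.38) and Rbbp5 (-1.33) lower in pan-BC than in rods. Ash2l was past 2-fold between ON-BC (1319.8, 1081 and 1200.5) and OFF-BC (294, 341 and 424), by 1.77 (limma adjusted p = 0.000312). Among 18 other lysine methyltransferases, 1 was higher and 4 were lower in pan-BC than in rods. Prdm9, known for marking meiotic recombination sites, stood at 2846, 2876 and 2842 in the rod libraries, 1061, 769 and 643 in blue cones and 107, 127 and 175 in pan-BC. Suv39h2, an H3K9 methyltransferase of heterochromatin, stood at 542, 544 and 522 in the rod libraries, 116, 127 and 142 in blue cones and 14.9, 13.1 and 30.6 in pan-BC. Smyd2 was lowest in rods (23.3, 24.6 and 34.6, against 575 to 648 in pan-BC). Setdb2 (-2.37) and Suv420h2 (-1.33) were lower in pan-BC than in rods, Suv39h1 (-1.39) lower and Whsc1 (1.54) higher than in blue cones, and Smyd5 lower in rods than in blue cones (-1.42).

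The polycomb list of 28 tested genes, whose products set and read H3K27 and H2A marks, had 6 higher and 3 lower past 2-fold in pan-BC than in rods, and 5 higher and 0 lower than in blue cones. Of all genes, 27.8% were higher and 15.8% lower than in rods, and 22.7% and 13.7% than in blue cones. Ezh2, the methyltransferase of polycomb repressive complexes in dividing cells, stood at 1065, 954 and 1080.4 in pan-BC and 914, 1097 and 924 in ON-BC, but at 151, 198 and 212 in OFF-BC, 214, 149 and 167 in blue cones and 372, 342 and 344 in the rod libraries. ON-BC thus exceeded OFF-BC by 2.39 (SE 0.15, limma adjusted p against 2-fold = 4.53e-06). Its paralogue Ezh1, of resting cells, was higher in rods (2831 to 3048) than in pan-BC (998 to 1195). Pcgf2 (329, 385 and 465 in pan-BC and 38.8, 22.5 and 20.5 in rods), Pcgf5 (1.60), Cbx6 (1.41) and Asxl3 (8.07 to 12.8 in pan-BC and 0 in rods) were higher in pan-BC relative to rods, and Jarid2 (-1.65) and Rnf2 (-1.42) lower. Phf1 was higher in pan-BC than in blue cones (1.65), Cbx7 lower in rods than in blue cones (-1.75), and Phf19 was higher in OFF-BC (24.6, 20.4 and 13.2) than in ON-BC (2.06, 0 and 1.03). Of 14 acetyltransferases, Kat8 was lower in pan-BC relative to rods (-1.47) and Ep300 (1.50) and Ncoa1 (1.36) higher than in blue cones, and of 14 INO80 and SRCAP remodelers, Ino80c was lower than in either photoreceptor (-1.81 and -2.26) and Ep400 higher than in blue cones (1.38).

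Between ON-BC and OFF-BC, 14 of 82 members (17.1%) were higher in ON-BC by the test against no change, near the 12.7% of all genes. The 2 members lower in ON-BC (2.44%) were a smaller share than the 14.2% of all genes. The 14 members higher in ON-BC included Hdac9 and Hdac7, Arid1b, Arid3b (0.61), Kdm1b (0.71), Smarcd1 (0.72), Smarca4 and Hdac5. The 2 lower ones were Chd7 and Kdm4d (-0.80). Arid3c, at 8.25, 3.92 and 9.23 in ON-BC and 0, 0 and 2.21 in OFF-BC, carried few reads. The calls of Smarcd1 and of Kdm6b (0.51) were lost without single libraries: Smarcd1 without ON-BC replicate 2 or 3 or OFF-BC replicate 3 (limma adjusted p from 0.0506 to 0.0681), and Kdm6b without ON-BC replicate 1 or 3 or OFF-BC replicate 3 (0.0619 to 0.0967). OFF-BC libraries went through 2 sorts and ON-BC libraries through 1, so sorting and cell class cannot be told apart here.

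Pan-BC holds both ON and OFF bipolar cells. For 5 members (Hdac1, Kdm8, Kmt2d, Setd3 and Smarcd1) all 3 pan-BC libraries lay below all 6 ON-BC and OFF-BC libraries, which is 6.10% of the members and 3.17% of all genes tested. For 5 others (Arid5b, Kdm2b, Sirt2, Sirt4 and Smarca4) they lay above all 6 (6.10% of the members, 3.71% of all genes). Smarcd1 showed the largest gap to ON-BC, with a log2 fold change of -1.84 for pan-BC over ON-BC (SE 0.20, limma adjusted p against 2-fold = 0.031). With ON-BC in place of pan-BC, Smarcd1 no longer lay below rods (0.43) or blue cones (0.78). The gap to OFF-BC was wider for Kmt2d (means of 2361 in pan-BC and 6508 in OFF-BC) than for Smarcd1 (491 and 1091). Hdac1, with a log2 fold change of -0.85 for pan-BC over blue cones, was at -0.15 with ON-BC and -0.03 with OFF-BC. The pan-BC mice lacked the Grm6-YFP allele and their cells were sorted once.

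Open chromatin near the members was read from the deposited table of 110715 regions of 200 bp each. Each region went to the gene whose start site lay nearest in RefSeq (GRCm38.p6, the assembly called mm10 in the study), which gave 633 regions to 82 members, of which 622 were tested. Between pan-BC and rods, 159 of these were more open in pan-BC and 93 less open past 2-fold, against 40.3% and 11.2% of all regions. Between pan-BC and blue cones 122 were more and 49 less open (28.8% and 7.13%), between ON-BC and OFF-BC 18 and 24 (4.58% and 2.80%), and between rods and blue cones 11 and 36 (1.46% and 8.56%). The ON-BC and OFF-BC split was 13 and 30 under TMM scaling and 13 and 33 when scaled by library totals, and the total of 42 came down to 24 without ON-BC replicate 2 or OFF-BC replicate 1 or 2. The 47 regions between rods and blue cones came down to 27 to 32 without any 1 of the 4 libraries. The 304 distinct regions called in any of these comparisons lay in introns (180), between genes (68) or on exons (56).

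Openness near members was also set beside the RNA of the member. The 9 members with more RNA in pan-BC than in rods had 64 tested regions, of which 28 were more open in pan-BC and 5 less open (43.8% and 7.81%, against 40.3% and 11.2% of all regions). The 11 with less RNA in pan-BC had 122, of which 32 were more and 21 less open (26.2% and 17.2%), and the 62 others had 436, of which 99 were more and 67 less open (22.7% and 15.4%). Against blue cones, the 12 members with more RNA in pan-BC had 101 regions, of which 24 were more and 8 less open (23.8% and 7.92%, against 28.8% and 7.13% of all regions), and the 10 with less RNA had 117, of which 21 were more and 17 less open (17.9% and 14.5%). Between rods and blue cones, the 8 members with less RNA in rods had 63 regions, of which 6 were less open in rods (9.52%, against 8.56% of all regions). Regions of 1 gene share that gene, so these counts were not tested.

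Sequences of 7 called regions are printed, each 200 bases of the plus strand of GRCm38.p6 in lower case. They are picked examples of differences in openness near members and do not stand for all member regions. Capitals mark 3 motifs on either strand. The K50 core TAATCC, or GGATTA when read from the opposite strand, is bound by homeodomain factors such as OTX2 and CRX. The Q50 core TAATTA is bound by homeodomain factors such as RAX. The E-box core marked here, CAGATG, with CATCTG on the opposite strand, is bound by bHLH factors. The study gives the E-box more widely as CANNTG, and the Q50 motif as TAATTA or TAATTG. Other forms of both were neither marked nor counted. A K50 and a Q50 core can share letters, which does not occur in the 7 regions. Over all 110715 regions, 21.8% held the K50 letters, 5.20% the Q50 letters and 22.3% the E-box letters. A match describes the letters and is not a measurement of binding.

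The first set shows regions more open in rods than in pan-BC, 1 in an intron of Arid3b (10594 bp from its start) and 1 in an intron of Kmt2e (43501 bp from its start).
Arid3b, chr9:57825791-57825990: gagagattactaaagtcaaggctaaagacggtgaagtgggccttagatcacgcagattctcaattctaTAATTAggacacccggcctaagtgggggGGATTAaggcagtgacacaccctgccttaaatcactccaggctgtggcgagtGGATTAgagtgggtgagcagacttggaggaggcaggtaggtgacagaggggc
Kmt2e, chr5:23477866-23478065: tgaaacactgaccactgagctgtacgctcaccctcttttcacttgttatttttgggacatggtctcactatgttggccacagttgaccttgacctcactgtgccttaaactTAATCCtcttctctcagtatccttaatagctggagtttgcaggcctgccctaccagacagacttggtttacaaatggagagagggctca
The Arid3b region holds 2 K50 cores and 1 Q50 core, and the Kmt2e region 1 K50 core. In normalized reads, the Arid3b region stood at 334 and 315 in the rod libraries, 181 and 145 in those of blue cones and 212 and 180.3 in those of green cones, against 11.2 and 14.8 in pan-BC, 0 and 7.32 in ON-BC and 25.6 and 38.9 in OFF-BC. All 6 photoreceptor libraries lay above all 6 bipolar ones, as did the RNA of Arid3b, and pan-BC was less open than rods, with a log2 fold change of -4.55 (SE 0.59, limma adjusted p against 2-fold = 3.92e-05). The Kmt2e region was open in rods (70.1 and 69.1) and less so in green cones (35.3 and 19.7), and nearly closed in blue cones (2.59 and 0) and pan-BC (6.4 and 5.7), with a log2 fold change of 5.22 for rods over blue cones (limma adjusted p = 0.000241).

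The second set shows regions closed in rods and open in bipolar cells, 1 in an intron of Chd5 (6700 bp from its start, chosen after its values were seen) and 1 in an intron of Kdm4b (40439 bp).
Chd5, chr4:152345255-152345454: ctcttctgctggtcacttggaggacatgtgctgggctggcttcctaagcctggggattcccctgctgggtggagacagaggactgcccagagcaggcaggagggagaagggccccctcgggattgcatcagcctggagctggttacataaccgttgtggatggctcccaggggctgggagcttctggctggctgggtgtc
Kdm4b, chr17:56366390-56366589: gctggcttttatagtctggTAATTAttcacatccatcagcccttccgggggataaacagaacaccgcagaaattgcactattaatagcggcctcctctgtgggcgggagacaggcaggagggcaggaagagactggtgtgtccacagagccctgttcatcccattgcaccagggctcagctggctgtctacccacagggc
The Chd5 region holds none of the 3 marked cores, and the Kdm4b region 1 Q50 core. Both hold unmarked letters of the wider E-box form CANNTG, such as CACTTG in the Chd5 region and CAGCTG in the Kdm4b region. The Chd5 region stood at 6.23 and 8.81 in rods, against 160.0 and 139 in pan-BC, 148 and 141 in ON-BC, then 133 and 164 in OFF-BC, 168 and 171 in the blue cone libraries and 108 and 139 in those of green cones. The rod libraries lay below those of the other 5 populations there (4.15 for pan-BC over rods, limma adjusted p against 2-fold = 1.22e-08), whereas Chd5 RNA was also lower in blue cones than in bipolar cells. The Kdm4b region had no read in either rod library, a mean of 104 in pan-BC and 113 and 190.3 in ON-BC, then 32.3 and 33.1 in OFF-BC and 14.2 and 24.6 in blue cones, and was called past 2-fold between pan-BC and rods (limma adjusted p = 6.1e-08).

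The third set shows regions that differed between ON-BC and OFF-BC, near the 2 members past 2-fold in that comparison and near Arid5b.
Chd7, chr4:8750837-8751036: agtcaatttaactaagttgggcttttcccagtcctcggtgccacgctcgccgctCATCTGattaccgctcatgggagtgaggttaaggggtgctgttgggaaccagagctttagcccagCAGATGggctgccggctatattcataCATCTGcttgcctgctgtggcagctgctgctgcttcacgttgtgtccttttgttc
Arid5b, chr10:68203371-68203570: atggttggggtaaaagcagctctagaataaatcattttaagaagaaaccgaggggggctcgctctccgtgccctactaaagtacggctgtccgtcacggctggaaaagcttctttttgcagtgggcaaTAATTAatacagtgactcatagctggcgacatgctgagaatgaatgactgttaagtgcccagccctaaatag
Hdac9, chr12:34660148-34660347: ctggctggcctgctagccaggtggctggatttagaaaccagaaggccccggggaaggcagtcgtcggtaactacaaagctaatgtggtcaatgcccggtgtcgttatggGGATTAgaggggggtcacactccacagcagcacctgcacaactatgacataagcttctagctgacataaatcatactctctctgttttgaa
The Chd7 region holds 3 E-box cores, the Arid5b region 1 Q50 core and the Hdac9 region 1 K50 core. All 3 lie in introns. The Chd7 region lies 388 bp before an internal start site of the gene, 75256 bp separate the Arid5b region from the nearest Arid5b start, and the Hdac9 region lies 131358 bp before the nearest Hdac9 start. The Arid5b region stood at 47.8 and 96.6 in ON-BC, then 1.35 and 1.95 in OFF-BC, 45.6 and 69 in pan-BC and 0 in both rod libraries, and the Hdac9 region at 44.8 and 35.1 in ON-BC, then 0 and 2.92 in OFF-BC, 26.4 and 25.7 in pan-BC and 1.56 and 0 in rods. Both were more open in ON-BC, as was the RNA of these genes (4.71 and 4.36, limma adjusted p against 2-fold = 0.00233 and 0.017). In photoreceptors, which hold more Hdac9 RNA than any bipolar library, the Hdac9 region was nearly closed.

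The Chd7 region went against the RNA in the comparisons of pan-BC with each photoreceptor and of ON-BC with OFF-BC. It stood at 170.4 and 274 in pan-BC, 245 and 302 in ON-BC, then 83.5 and 42.8 in OFF-BC, 32.4 and 31.1 in blue cones and 27.3 and 31.8 in the rod libraries. It was more open in pan-BC than in rods by 2.83 and than in blue cones by 2.73, and in ON-BC than in OFF-BC by 2.16 (limma adjusted p against 2-fold = 5.03e-05, 0.000185 and 0.0178), while Chd7 RNA was lowest in ON-BC and highest in blue cones. The ON-BC and OFF-BC call was lost without ON-BC replicate 2 or OFF-BC replicate 2. This is 1 of 38 regions of Chd7. Of these, 8 were more and 8 less open past 2-fold in pan-BC than in rods, and 6 and 6 than in blue cones. In ON-BC, 1 was more open and 3 were less open than in OFF-BC, so most of those calls went with the RNA.

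**Figure D5:**
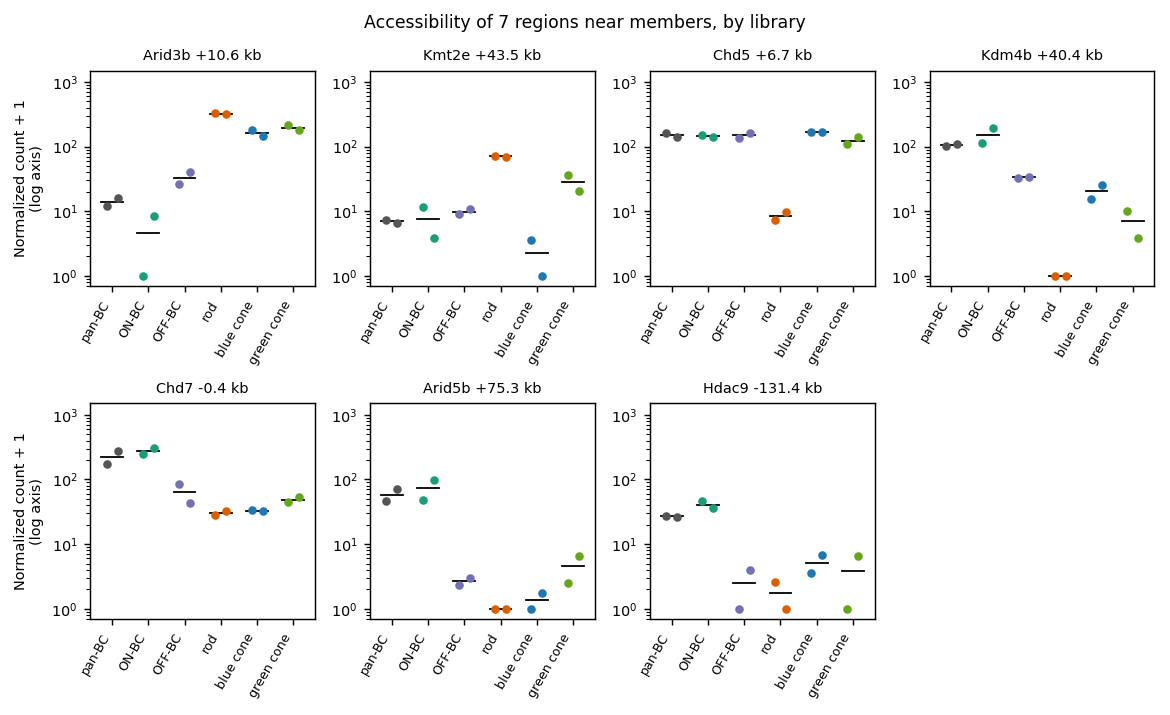
Normalized ATAC-seq count plus 1 (log axis) of the 7 regions whose sequences are printed, 1 point per library (2 per population) and lines at the means, each titled by gene and distance in kilobases from the nearest start site. The Arid3b region is open in all photoreceptors, the Kmt2e region mainly in rods, the Chd5 region in all populations but rods, and the Chd7, Arid5b and Hdac9 regions more in ON-BC than in OFF-BC.

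The other regions that the naming rule reached were mostly near 0 in 1 population or class. Far upstream of Smarca2, 4 regions within introns of predicted genes took opposite orders. The region 38911 bp upstream stood at 80.8 and 78.1 in pan-BC, 53.9 and 43.8 in OFF-BC, 0 in both rod libraries and 0 and 1.45 in blue cones. Those 42658 bp and 45203 bp upstream were open in blue cones (53.1 and 58.5, and 97.1 and 111) and nearly closed in rods (0 and 1.36, and 1.56 and 6.78). The one 103600 bp upstream stood at 174 and 244 in the blue cone libraries and 118 and 101 in those of green cones, 56.6 and 43.8 in OFF-BC, 0 and 2.93 in ON-BC and 7.79 and 8.81 in rods. It was thus more open in blue cones than in rods and in OFF-BC than in ON-BC (log2 fold changes of -4.48 for rods over blue cones and -4.68 for ON-BC over OFF-BC, limma adjusted p against 2-fold = 7.59e-05 and 0.000224). Smarca2 RNA was called in neither direction between ON-BC and OFF-BC. Cone transcripts were present in the OFF-BC RNA libraries, and the part of cone cells in the OFF-BC openness of this region was not tested.

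Bipolar regions nearly closed in photoreceptors lay 76470 bp and 75223 bp upstream of Hdac2 between genes (84 and 103, and 67.2 and 109 in pan-BC) and in an intron of Hdac9, 124816 bp into the gene (70.4 and 109 in pan-BC and 1.56 and 0 in rods). An intronic region of Smarcal1, an annealing helicase, stood at 74.7 and 76.1 in ON-BC and 0 and 7.79 in OFF-BC. An intronic region of Arid3b, 27488 bp from its start, stood at 0 in both ON-BC libraries and 21.6 and 21.4 in OFF-BC, against the order of its RNA, and a region on an exon of Vdr, 22622 bp upstream of Hdac7, at 0 in both ON-BC libraries and 21.6 and 22.4 in OFF-BC. Rod regions nearly closed in pan-BC lay in Kmt2a (60.7 and 38.6 in rods and 1.6 and 1.14 in pan-BC) and in an intron of Arid4a (37.4 and 40 and 2.4 and 0). The former went with Kmt2a RNA.

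The 3 motifs were counted in called regions outside promoters. Of 81 member regions less open in pan-BC, 45.7% held a K50 core, 16.0% a Q50 core and 11.1% an E-box core. The shares over all 9905 regions less open in pan-BC were 42.9%, 6.85% and 15.5%. Of 151 member regions more open in pan-BC, 21.2%, 6.62% and 33.8% held them, against 21.2%, 5.29% and 33.1% of all 40902. Against blue cones, the 49 less open member regions held them in 49.0%, 14.3% and 18.4% (all such regions 43.8%, 12.5% and 18.5%) and the 115 more open ones in 20.9%, 5.22% and 36.5% (21.0%, 4.76% and 35.8%). In these comparisons the members' share stood farthest from that of all regions for the Q50 core in the 81 regions, where it rests on 13 regions. The other comparisons had 10 to 36 member regions per direction. Among them, 8 of 10 regions more open in rods than in blue cones held a K50 core (40.5% of all such regions), and of 24 less open in ON-BC than in OFF-BC, 20.8% held a Q50 core and 33.3% an E-box core (12.7% and 21.3%). These shares were not tested.

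Promoters were taken as regions centred from 1000 bp before to 100 bp after any annotated start site. Of 108 promoter regions at 73 members, 8 were more and 12 less open in pan-BC than in rods past 2-fold (17.2% and 13.8% of all promoter regions, a split of 9 and 4 when scaled by library totals, 7 and 20 under TMM scaling, 8 and 29 by edgeR and 7 and 6 by DESeq2), 7 more open than in blue cones by limma (11.5%, with 3.76% of all promoter regions less open, while edgeR called 7 member promoters in each direction), and 1 more open in ON-BC than in OFF-BC (0.370% and 0.903%). Between rods and blue cones 1 was more open in rods (1.03% and 5.55%), that of Sirt1, at 426 and 411 in rods and 162 and 126 in blue cones, where the RNA was also higher in rods. This single call was lost without rod replicate 1 or 2 or blue cone replicate 2, and the 20 promoter calls between pan-BC and rods numbered 11 without pan-BC replicate 2 and 12 without rod replicate 1. Some promoters went with the RNA: a promoter of Setd7 stood at 53.6 and 64.4 in pan-BC and 2.34 and 6.78 in rods, and 1 of Kdm4c at 1.6 and 5.13 in pan-BC and 49.8 and 60.3 in rods. Others went against it, such as a promoter of Hdac9 at chr12:34529291-34529490, on an exon of the gene, with 96.8 and 115 in pan-BC, 6.23 and 2.03 in rods and 7.77 and 10.8 in blue cones (4.51 for pan-BC over rods, limma adjusted p against 2-fold = 1.69e-05). Arid1a, whose RNA differed in no comparison, had 4 promoter regions less open in pan-BC than in rods, from -1.83 to -1.64 on the log2 scale.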

How the data were processed

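RNA-seq (SMARTer Ultra Low RNA libraries, single-end reads) and ATAC-seq were measured in sorted retinal cells. Per the submitters' processing notes, the authors aligned RNA reads with STAR 2.7.0d and counted them with HTSeq 1.9, and used Bowtie2 2.2.5, SAMtools 1.3, Picard 2.19.0, MACS2 2.1.1, HOMER 4.8 and bedtools 2.24.0 for ATAC-seq, on mm10. The authors deposited both tables as signal, gene or region counts divided by 1 size factor per library. All values above 0 (100.0%) were whole multiples of 1 read within 0.01 read, so counts could be recovered.

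Each table was fitted whole with limma 3.58.1 (R 4.3.3) on log2(value + 1), with 1 level per population and a trended prior, after a filter on low counts (14024 of 24062 genes and 108448 of 110715 regions kept), and tested by treat against a 2-fold difference and by eBayes against no change, at an FDR of 0.05. A fold of a low gene is understated on this scale. Alternatives were pseudocounts of 0.5 and 5, no filter, TMM or library total scaling, edgeR 4.0.16 and DESeq2 1.42.0 on recovered reads, fits of only the populations compared, a replicate block, leaving out each library, and, added after seeing the data, ON-BC or OFF-BC in place of pan-BC. Scripts were tested on simulated data. Replicate libraries of each group differed by more than counting noise. The study calls its replicates biological, while the labels do not say which animals each came from, so p-values measure the spread between these libraries.

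The members and the lists of partners and markers were chosen with earlier results of these data known. Named were the members with the largest non-overlapping changes past 2-fold in each comparison, a fixed set of paralogues, the 3 highest and 3 lowest per kilobase, partner genes past 2-fold (some are not reported here), and the regions with the largest changes. Coordinates, exon lengths and sequences came from RefSeq (GRCm38.p6), in which all 83 members were found. The peak lists, among them those of 2 further green cone libraries, were not used here.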

Additional observations from a re-analysis of the deposited data

How the results depend on the processing

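The 8 RNA counts of members stayed within 1.5 times their value under every alternative, with 18 to 20 past 2-fold against rods, 20 to 25 against blue cones, 2 to 3 between ON-BC and OFF-BC and 8 to 10 between rods and blue cones when 1 library was left out, and 58 to 61, 55 to 59, 12 to 19 and 53 to 58 differing. With ON-BC in place of pan-BC, 8 members were higher and 8 lower than in rods and 13 and 8 than in blue cones, and with OFF-BC 9 and 11, and 10 and 9. The open chromatin counts were less stable. Promoters called between pan-BC and rods (20) numbered 13 by library total scaling, 37 by edgeR, 13 by DESeq2 and 11 to 21 without 1 library, and those between pan-BC and blue cones (7) 14 by edgeR. Regions between ON-BC and OFF-BC (42) numbered 71 by edgeR, 19 by DESeq2, 15 with only these populations fitted and 24 to 38 without 1 library, and promoters (1) 2 by edgeR, 0 with only these populations, 2 with the block and 0 to 2 without 1 library. Regions between rods and blue cones (47) numbered 91 by edgeR, 0 with only these populations and 27 to 32 without 1 library. Promoters there (1) numbered 2 and 0 with pseudocounts of 0.5 and 5, 2 by TMM, 3 by library total scaling, 8 by edgeR, 0 by DESeq2, 0 with only these populations, 2 with the block, 3 with blue and green cones as 1 level and 0 to 1 without 1 library. The cause was not tested, except that a fit of 2 populations of 2 libraries has fewer residual degrees of freedom.

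Of 1976 values of 122 named calls, 1865 kept direction and side of the threshold, 105 lost the call and 6 changed sign: Hdac5 against rods by library total scaling (0.068), Smarcd1 against rods with ON-BC (0.43), Smarcd1 against blue cones with ON-BC (0.78) and OFF-BC (0.060), Arid1b against blue cones with OFF-BC (-0.22) and Kdm5d against blue cones with OFF-BC (0.26). Of the genes called past 2-fold between pan-BC and rods, 63.8% were higher in pan-BC, and 74.0% by library total scaling. With that scaling, members split 13 to 10 against rods and 18 to 10 against blue cones. ON-BC and OFF-BC libraries share replicate numbers, whose deviations correlated at -0.08, 0.22 and -0.06 for the 3 pairs, and their ages match in the labels, which do not say whether they share animals. Pairing was not shown. The replicate block left 122 of 122 named calls as they were, and moved members differing between ON-BC and OFF-BC from 16 to 18 and regions from 42 to 50. The number of ATAC-seq libraries (2 per population) limits what could be called near members. Low counts limit Arid3c and Smarca5-ps, and Kdm5d is limited by 2 pan-BC libraries that hold none of its reads.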
